A study of Mus musculus with 6 samples.

Results

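The BCL2 family decides whether a cell releases cytochrome c from its mitochondria and dies by apoptosis. Pro-survival members such as BCL2, BCL-XL and MCL1 hold the pore-forming effectors BAX and BAK in check, and BH3-only proteins, which carry only the short BH3 helix of the family, either bind and occupy the pro-survival proteins or activate the effectors directly. Embryonic stem cells are known for a low threshold to apoptosis, and in the fetal gonad this family takes part in setting the number of germ cells and somatic cells. The 10 genes described here are 3 pro-survival genes (Bcl2, Bcl2l1 and Mcl1), 2 effector genes (Bax and Bak1) and 5 BH3-only genes (Bid, Bcl2l11, Bbc3, Pmaip1 and Bmf). They were chosen by name, with earlier results of these data known. A probe belonged to a member when its transcript identifier mapped to the member's symbol. This gave 12 of the 39429 gene probes on the array, 2 each for Bcl2l1 and Mcl1 and 1 for each other member. All 12 were well above background on all 6 arrays, so all 10 members were among the 19670 genes tested.

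RNA was measured on 6 one-colour Agilent mouse arrays, 1 per sample. For soma, 3 samples of gonadal somatic cells came from male genital ridges at E13.5, from MCH x C57BL6/J embryos with the Oct5<delta>PE-GFP transgene. For ESC, 3 samples came from VR15, a single male embryonic stem cell line with a Vasa::RFP transgene, so that its samples represent 1 line. The study's title concerns energy metabolism in primordial germ cells, and the labels number the replicates without saying whether cultures or litters were separate. The p-values measure the spread between these samples, which may in part be technical.

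The labelled cell types were checked against marker lists. Of 8 pluripotency genes tested, 8 were higher in ESC (median log2 difference 6.56). Of 7 Sertoli cell genes 7 were higher in soma, and Sox9, Amh and Defb19 were not well above background on any ESC array. All 4 fetal Leydig genes and all 5 interstitial genes tested were also higher in soma. The 4 erythroid and 5 macrophage and leukocyte genes tested were higher in soma too, but all 4 of the former and 3 of the latter were above background on no ESC array. Genes of any list measured in 1 group alone, Sox9, Amh and Defb19 included, entered the test through that group, which fixed their direction. The summed erythroid and macrophage signals were 531 to 547 and 6.02 to 6.44 times the array's 75th percentile on the soma arrays, against 0.0320 to 0.0436 and 0.580 to 0.830 on the ESC arrays. The 5 endothelial genes were split, with 2 higher in each group and 1 that did not pass. The latter, Kdr, had a log2 difference, ESC minus soma, of 0.26 on its brighter probe and -4.09 on the other. Of 6 germ cell genes 1 was higher in ESC and 2 in soma, with sums of 4.98 to 8.20 on soma arrays and 6.85 to 8.04 on ESC arrays. The part of these other cells in the differences below was not tested.

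Signals are given as multiples of the array's 75th percentile over gene probes, and differences as log2, ESC minus soma, with the SE of a limma fit over all genes (n = 3 arrays per group). The level of a probe depends on its sequence, so levels of different genes are not compared. Of the 10 members 9 passed an adjusted p of 0.05, against 84.9% of all genes tested, so the count by itself is close to the background. Of their 12 probes 10 passed, against 84.7% of all probes tested. By direction, 7 members stood higher in ESC (46.6% of all genes) and 2 in soma (38.3%). A change of 2-fold or more was found for 8 of 10 members, against 47.5% of all genes. Of these 8, 7 were higher in ESC (24.2% of all genes) and 1 was higher in soma (23.2%). The count at 2-fold depends on the scaling. Mcl1 and Bak1 fell short of 2-fold under quantile normalization (log2 0.63 and 0.88) and under spike-in scaling (0.95 and 0.98). The values of the groups did not overlap for 9 members, against 87.2% of all genes. The median difference of the members was 1.32, and that of all genes 0.14.

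The upstream sequences of 3 members are shown because Bcl2 and Bbc3 moved furthest in opposite directions and because Bbc3 and Bcl2l11 hold a forkhead core match. They are from RefSeq on GRCm38.p6, 5′ to 3′ along the gene, and give the 250 bases before an annotated start. RefSeq windows were found for 9 of the 10 members (16 windows, since some genes have several starts). Capitals mark the forkhead core TGTTTAC and the GC box GGGCGG, on either strand. The arrays do not show which start was used.
Bcl2, chr1:106714291-106714540, minus strand: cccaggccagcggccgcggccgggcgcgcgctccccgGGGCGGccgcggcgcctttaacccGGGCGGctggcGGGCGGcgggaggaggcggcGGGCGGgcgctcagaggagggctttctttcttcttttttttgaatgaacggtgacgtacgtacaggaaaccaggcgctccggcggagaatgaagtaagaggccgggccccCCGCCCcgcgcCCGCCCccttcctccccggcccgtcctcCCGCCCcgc
Bbc3, chr7:16310011-16310260, plus strand: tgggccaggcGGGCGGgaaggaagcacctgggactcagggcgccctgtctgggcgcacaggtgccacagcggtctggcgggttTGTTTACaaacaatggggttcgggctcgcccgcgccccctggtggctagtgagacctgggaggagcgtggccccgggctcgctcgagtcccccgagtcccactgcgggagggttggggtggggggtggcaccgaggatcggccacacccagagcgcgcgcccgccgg
Bcl2l11, chr2:128125788-128126037, plus strand: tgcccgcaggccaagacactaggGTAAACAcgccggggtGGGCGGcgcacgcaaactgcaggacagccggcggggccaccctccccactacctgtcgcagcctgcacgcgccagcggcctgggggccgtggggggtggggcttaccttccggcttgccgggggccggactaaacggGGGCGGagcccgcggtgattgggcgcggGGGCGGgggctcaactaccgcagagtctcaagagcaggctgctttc

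The forkhead core was in 1 Bbc3 window, 167 bases before the start, and in 1 Bcl2l11 window, 227 bases before it, and in no other member window. It was in 3.17% of 32851 mouse windows of the same length. Both genes are known targets of forkhead FOXO factors, as background. Foxo1 itself did not pass (log2 difference -0.08, adjusted p 0.239), and its other probe gave 0.06. Foxo3 was not among the genes tested. The part of FOXO factors in the differences was not tested. The GC box was in 9 of the 16 member windows, from 6 genes, against 32.7% of all windows. The Bcl2 window holds 7 GC boxes and is 74.8% G and C, and the Bbc3 and Bcl2l11 windows shown hold 1 and 3 and are 72.4% and 72.0% G and C, against a median of 52.4% over all windows. The other Bbc3 windows hold 5 and 7 GC boxes, so the number depends on the start taken. Matches of GGGCGG are more likely in such sequence. Of the other motifs searched, the E-box CACGTG was in 2 member windows (6.02% of all windows) and the CCAAT box CCAAT in 5 (33.8%). The TATA box TATAAA (12.4%) and the p53 decamer form RRRCATGYYY (1.63%) were in 0. Here R is A or G and Y is C or T, and p53 decamers with other central bases were not searched. Each motif named was searched on both strands. A match is a description of the letters in the window.

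Among the pro-survival genes, Bcl2, Bcl2l1 and Mcl1 each behaved differently. Bcl2, the founding member, whose protein sits on mitochondria and the endoplasmic reticulum, had signals of 1.08, 1.11 and 1.16 in soma 1 to 3 against 0.0708, 0.0979 and 0.0833 in ESC 1 to 3. All 3 soma arrays were high, all 3 ESC arrays low, and the groups did not overlap. Bcl2 was 13.4-fold lower in ESC (log2 -3.75 ± 0.12, SE, n = 3 per group, adjusted p 1.31e-06), and 95.4% of genes tested had a higher difference. On the ESC arrays the probe was dim though well above background, where the lowest signal of any probe with that mark was 0.0240 to 0.0328. The size depended on the background correction: with normexp the log2 difference was -3.01, and with no background correction -3.02. The array names 1 transcript for this probe, and RefSeq has 2 curated coding transcripts of Bcl2. In bulk samples such as these, fewer cells of a type and less RNA per cell cannot be told apart.

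Bcl2l1 encodes BCL-XL, and by splicing also a shorter pro-death form, which these probes cannot be said to separate, since both carry the same transcript identifier. Its brighter probe had signals of 7.94, 7.88 and 7.53 in soma 1 to 3 against 8.30, 7.78 and 7.75 in ESC 1 to 3. The groups overlapped. Bcl2l1 stood at 0.03 ± 0.05 (log2, SE, n = 3 per group, adjusted p 0.626), with a 95% interval of -0.10 to 0.16, and its sign turned with the scaling: it was -0.34 (adjusted p 0.000875) under quantile normalization, -0.16 (adjusted p 0.164) under spike-in scaling and 0.22 (adjusted p 0.0261) under scaling to the array median. The dimmer Bcl2l1 probe, at 0.0750 to 0.0828 in soma and 0.0657 to 0.0750 in ESC, gave -0.16 ± 0.07 (SE, n = 3 per group, adjusted p 0.0761 over all probes). The lowest soma array and the highest ESC array of this probe overlapped, and neither probe passed.

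Mcl1, a short-lived pro-survival protein with a rapid turnover, rose in ESC on both probes. The brighter probe had signals of 10.2, 10.02 and 10.5 in soma 1 to 3 against 24.0, 21.8 and 21.9 in ESC 1 to 3. Every ESC array was above every soma array. Mcl1 was 2.20-fold higher in ESC (1.14 ± 0.06, SE, n = 3 per group, adjusted p 7.03e-06), a difference that was 0.63 under quantile normalization. The dimmer probe gave 2.04, 2.12 and 1.99 in soma and 7.82, 6.98 and 7.28 in ESC. Its difference was larger, at 1.84 ± 0.06 (SE, n = 3 per group, adjusted p 1.48e-06 over all probes), and its 95% interval of 1.69 to 1.998 did not meet that of the brighter probe, 0.99 to 1.28. Both probes carry the same transcript identifier.

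Both effector genes rose in ESC. Bax, whose protein moves from the cytosol to the mitochondrion to form pores, had signals of 4.34, 3.98 and 4.23 in soma 1 to 3 against 26.4, 24.5 and 26.4 in ESC 1 to 3. The ESC arrays were all high and the groups lay far apart. Bax was 6.16-fold higher in ESC (2.62 ± 0.06, SE, n = 3 per group, adjusted p 4.75e-07). Bak1, the effector resident on mitochondria, had signals of 3.63, 3.62 and 3.81 in soma and 7.93, 8.37 and 8.53 in ESC. Its groups did not overlap either, and it was 2.24-fold higher in ESC (1.17 ± 0.05, SE, n = 3 per group, adjusted p 4.56e-06). The 95% intervals were 2.47 to 2.77 for Bax and 1.03 to 1.30 for Bak1.

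**Figure D1:**
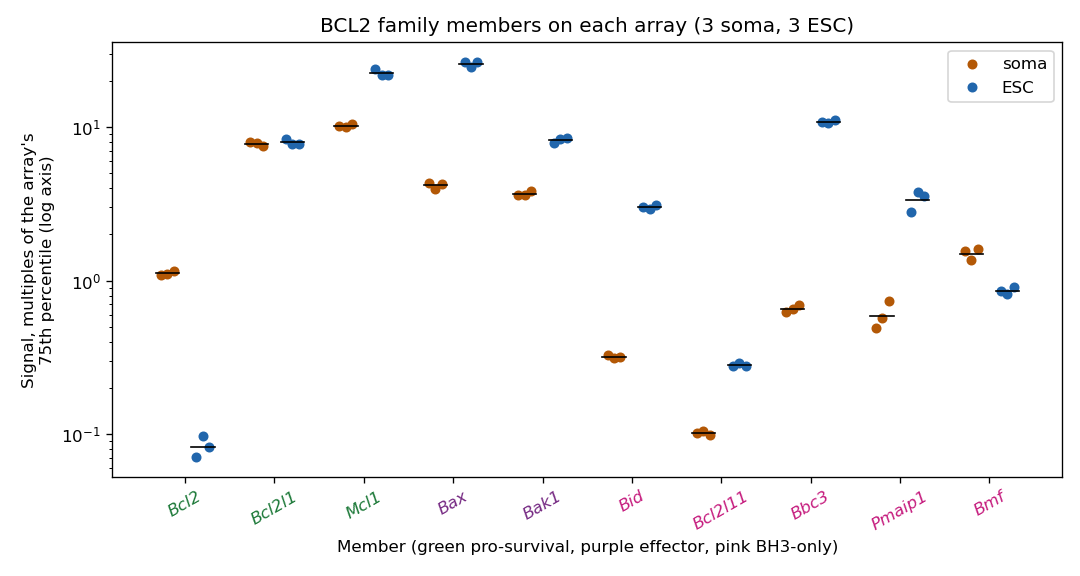
Signal of the 10 members on each of the 6 arrays, as multiples of the array's 75th percentile on a log axis, with points for arrays and black lines for the geometric mean of each group of 3. Bcl2 and Bmf lie lower in ESC, Bcl2l1 overlaps, and the other 7 lie higher in ESC.

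Of the 5 BH3-only genes 4 rose in ESC and 1 fell. Bbc3, which encodes PUMA, a binder of all pro-survival members and a target of p53, moved most. It had signals of 0.624, 0.651 and 0.693 in soma 1 to 3 against 10.8, 10.6 and 11.1 in ESC 1 to 3. Arrays of a group were close together and the groups did not overlap. Bbc3 was 16.5-fold higher in ESC (4.04 ± 0.06, SE, n = 3 per group, adjusted p 1.67e-07), and 2.90% of genes tested had a higher difference.

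Bid, which links death receptor signalling to mitochondria once caspase-8 cleaves it, had signals of 0.328, 0.313 and 0.318 in soma and 3.00, 2.91 and 3.12 in ESC. Bid was low on every soma array and 9.43-fold higher in ESC (3.24 ± 0.05, SE, n = 3 per group, adjusted p 1.98e-07). Bcl2l11, which encodes BIM, was dim on all arrays, at 0.102, 0.104 and 0.0987 in soma and 0.280, 0.290 and 0.280 in ESC. The groups stood apart and the difference was 1.48 ± 0.05 (SE, n = 3 per group, adjusted p 1.34e-06), or 2.78-fold. BIM is made in several splice forms, of which RefSeq has 5 curated coding transcripts, and the array names 1 for the probe.

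Pmaip1 encodes NOXA, which binds MCL1 by preference. It had signals of 0.495, 0.571 and 0.739 in soma 1 to 3 against 2.78, 3.78 and 3.58 in ESC 1 to 3. Pmaip1 was higher on every ESC array than on any soma array, by 5.65-fold (2.50 ± 0.19, SE, n = 3 per group, adjusted p 3.71e-05), and it had the widest standard error of the 10 members. Soma 3 was its highest soma array and soma 1 its lowest, with deviations from the soma mean of -0.26, -0.06 and 0.32 (log2) on soma 1 to 3. The 6 germ cell markers had median deviations of -0.52, 0.06 and 0.48 on the same arrays, and the 8 pluripotency markers -0.32, 0.12 and 0.18. The Sertoli markers ran the other way, at 0.16, 0.02 and -0.12, and the remaining marker lists lay between -0.13 and 0.09. The part of any of these cells in the Pmaip1 values was not tested. The deviations of the other 9 members on soma arrays were between -0.14 and 0.09.

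Bmf, which is bound to the cytoskeleton through a dynein light chain in healthy cells, was the BH3-only gene that fell. Its signals were 1.55, 1.35 and 1.60 in soma 1 to 3 against 0.853, 0.818 and 0.904 in ESC 1 to 3. Each soma array was above each ESC array. Bmf was 1.75-fold lower in ESC (-0.80 ± 0.08, SE, n = 3 per group, adjusted p 0.000161), the smallest of the 9 differences that passed. Its 95% interval of -1.01 to -0.60 reached just past a 2-fold change.

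**Figure D2:**
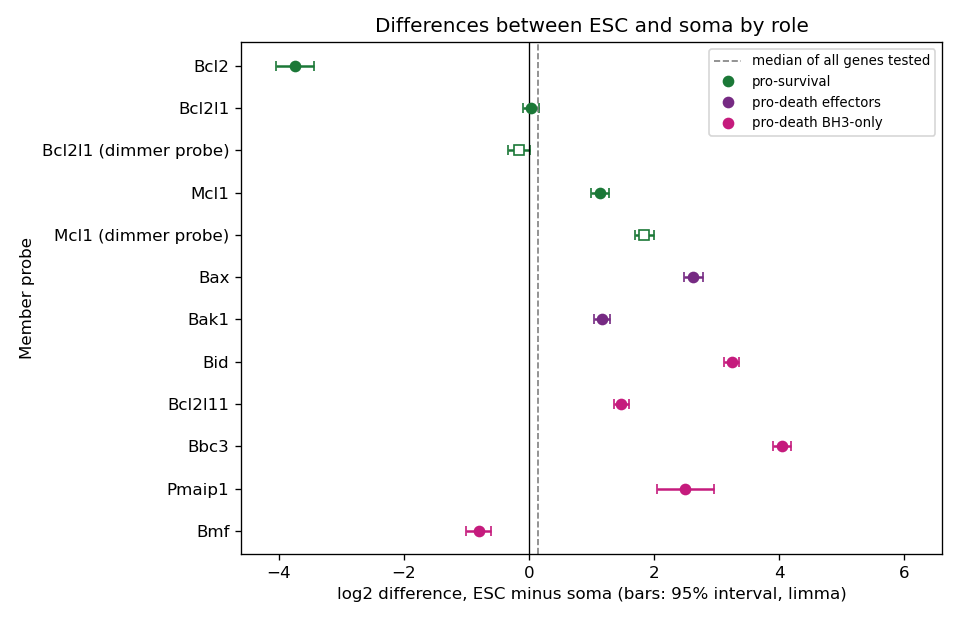
Log2 difference of each member probe, ESC minus soma, with 95% intervals from limma (filled circles for the probe that represents the gene, open squares for the dimmer probe of Bcl2l1 and Mcl1). The dashed line is the median of all genes tested, 0.14. Bcl2 at -3.75 and Bbc3 at 4.04 mark the ends.

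Set side by side by role, the 3 pro-survival genes had a median difference of 0.03 (1 higher in ESC, 1 lower and 1 that did not pass). The 7 pro-death genes had a median of 2.50 (6 higher and 1 lower). As a summary, each member was set as its deviation from its own mean over the 6 arrays, so that the means of both groups are equal and opposite by construction and only the distance between them carries information. These class means move with the scaling of an array, which cancels in the difference between classes. The mean deviation of the pro-survival genes was 0.42, 0.42 and 0.44 in soma 1 to 3 against -0.46, -0.38 and -0.45 in ESC 1 to 3. That of the pro-death genes was -1.05, -1.06 and -0.95 in soma and 0.97, 1.02 and 1.06 in ESC. The class means do not speak for each gene: of the pro-survival genes Bcl2 alone was lower in ESC, while Mcl1 was higher, and of the pro-death genes Bmf was lower. Pro-survival minus pro-death changed by -2.89 from soma to ESC, with an SD between arrays of 0.05 in soma and 0.06 in ESC (n = 3 each), given as a description with no test. Bcl2 carried much of it. Without Bcl2 the change was -1.45, and leaving out any other single member gave -3.89 (without Mcl1) to -2.56 (without Bbc3).

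**Figure D3:**
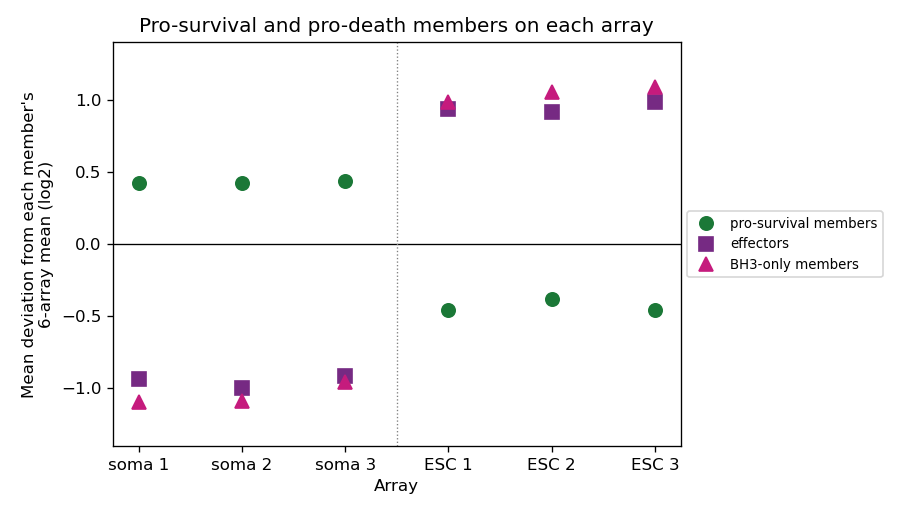
Mean deviation of pro-survival (3 genes), effector (2 genes) and BH3-only members (5 genes) from each member's own 6-array mean, in log2, on each array. Pro-survival members lie at 0.42 to 0.44 on soma arrays and at -0.46 to -0.38 on ESC arrays, a distance that rests on Bcl2. The centring places the groups on opposite sides of 0, and the distance between them is what the plot shows.

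Each pro-death gene was also set against each pro-survival gene within arrays. In 19 of the 21 pairs the ratio of pro-death to pro-survival signal was higher in ESC, with log2 changes of -1.94 to 7.79 over all pairs, and in 20 pairs the groups did not overlap. These pairs share genes and arrays, and each change follows from the differences of its 2 members given above. The pair counts therefore add no evidence beyond those differences. They were not set against other gene pairs, and the groups did not overlap for 87.2% of all single genes. Both pairs that moved the other way held Bmf, against Mcl1 (-1.94) and against Bcl2l1 (-0.83). The Bax to Bcl2 ratio rose by 6.37. The smallest changes were those of Bak1 to Mcl1, at 0.03 with overlap between groups, and Bcl2l11 to Mcl1, at 0.34. With the mean of a gene's probes these 2 pairs stood at -0.32 and -0.015, and 17 of 21 ratios were higher in ESC. With the dimmer Mcl1 probe, an alternative chosen after seeing the data, they stood at -0.68 and -0.37, again with 17 of 21. Without ESC 2 or without ESC 3 the Bak1 to Mcl1 ratio was also below 0, at -0.0055 and -0.014, and 18 of 21 ratios were higher in ESC.

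The arrays lay on 2 slides. Soma 1 and 2 shared 1 slide, and soma 3 shared the other with the 3 ESC arrays, while each scan held 1 group, so that scan and group cannot be told apart. Within the shared slide, with soma 3 as the sole soma array and assumed to vary as the others do, the same 7 members were higher in ESC and the same 2 lower. The differences there were -3.80 for Bcl2, 0.08 for Bcl2l1, 1.11 for Mcl1, 2.61 for Bax, 1.12 for Bak1, 3.25 for Bid, 1.52 for Bcl2l11, 3.96 for Bbc3, 2.18 for Pmaip1 and -0.90 for Bmf. Other scalings shifted the median of all genes, by -0.12 with quantile normalization, by 0.20 with the array median and by -0.19 with the spike-in probes. The 9 members that passed kept their direction under all 3.

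Other relatives of the family were mixed. Of 6 further pro-survival genes 2 were tested, and both were lower in ESC, Bcl2l2, the BCL-W gene, by 2.17-fold (-1.11 ± 0.07, SE, n = 3 per group, adjusted p 1.37e-05), and Bcl2a1d, a gene of the A1 cluster, by at least 3.96-fold. The A1 genes are near-identical copies, so this probe may read several of them. Bcl2a1d was above background on soma arrays alone, so it had to be lower in ESC to be tested. Such a bound stands where no array of a group measured the gene above background. It compares the bright group with the larger of the dim probe's own signal and the lowest well measured signal of that array. Of 10 other pro-death or divergent relatives 7 rose in ESC and 3 fell (median 0.45). Bcl2l14 was at least 23.5-fold higher and Hrk, a BH3-only gene known from neurons, at least 8.63-fold higher, with neither above background on any soma array. Such genes had to be higher in ESC to be tested. Under normexp the fitted differences were 3.64 for Bcl2l14, 2.03 for Hrk and -1.37 for Bcl2a1d, which fall short of the bounds of Bcl2l14, Hrk and Bcl2a1d. A second Bcl2l14 probe gave 2.78. Bcl2l13 fell by 1.22 and Bok, an effector relative of BAX, by 1.18.

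Of 10 apoptosome and caspase genes 3 rose in ESC, 6 fell and 1 did not pass (median -0.47). Cycs, the gene of cytochrome c itself, rose by 1.24 ± 0.06 on its brighter probe and by 0.45 on the other, and Dffb, the nuclease that cuts DNA in dying cells, by 0.78 ± 0.08. Casp8, the initiator that cleaves BID, fell by 2.58 ± 0.09 and the executioner Casp6 by 2.16 ± 0.11 (SE, n = 3 per group). Under normexp Casp8 stood at -1.99, and under quantile normalization Cycs stood at 0.63. Of 9 genes of caspase inhibitors and mitochondrial release factors 4 rose, 3 fell and 2 did not pass (median 0.12). Endog, a mitochondrial nuclease, rose by 1.71 and Birc5, the survivin gene, which also serves cell division, by 1.04 (0.36 under quantile normalization). Xiap, the direct caspase inhibitor, fell by 1.10. Birc3 fell by 0.83, near background, and stood at -0.20 under normexp and at -0.14 with no background correction, where it did not pass (adjusted p 0.0750).

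Of 10 death receptor genes 7 were tested. Tnfrsf10b, the TRAIL receptor gene, rose by 2.26 ± 0.06, and the other 6 fell (median of the 7, -0.85). Tnfrsf1a, which encodes the main receptor of tumour necrosis factor, fell by 3.27 ± 0.06 on its brighter probe (SE, n = 3 per group) and by 2.36 on the other. The brighter probe had signals of 7.25, 7.05 and 6.53 in soma 1 to 3 against 0.692, 0.745 and 0.725 in ESC 1 to 3. Ripk1, a kinase of that receptor's complex, fell by 1.003.

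Of 14 tested regulators and partners of the members 9 rose, 2 fell and 3 did not pass (median 0.83). Trp53, the p53 gene, had signals of 0.334, 0.335 and 0.421 in soma and 1.93, 1.84 and 2.07 in ESC, and rose by 2.43 ± 0.11 (SE, n = 3 per group, adjusted p 4.24e-06). Mdm2, which encodes the ubiquitin ligase of p53, rose by 1.62 ± 0.06. Dynll1, a dynein light chain that holds BIM, fell by 3.58 (-2.35 under normexp). Vdac3, a channel gene of the outer mitochondrial membrane, stood at -0.16 (adjusted p 0.0310), and this call was lost without any of soma 1, soma 2 or the 3 ESC arrays (-0.17 to -0.12), on the shared slide (-0.12), with no filter on dim probes (adjusted p 0.0959) and with the replicate number as a block (adjusted p 0.0649), and its sign turned under scaling to the array median (0.04).

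**Figure D4:**
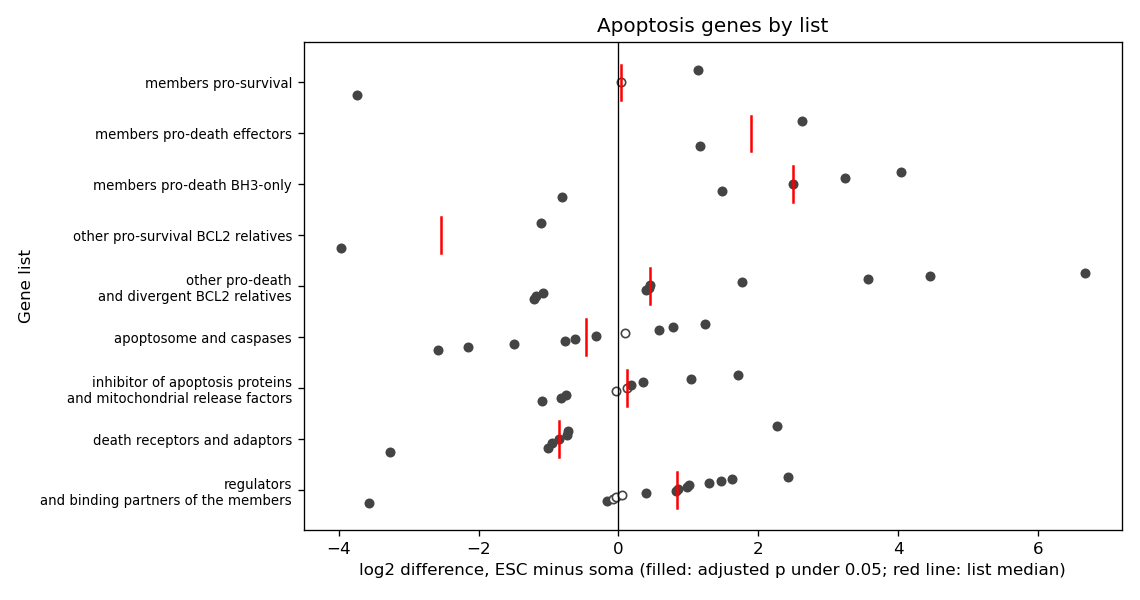
Log2 differences, ESC minus soma, of the tested genes of each list, 1 point per gene, filled where the adjusted p was under 0.05, with the list median as a red line. BH3-only members have a median of 2.50, while the apoptosome and caspase list lies at -0.47 and the death receptor list at -0.85.

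The genes whose values over the 6 arrays were most like those of Bbc3, after centring each gene on its mean, were Igf2bp1, an RNA-binding protein gene, Mkrn1 and the plakophilin gene Pkp2. Their root mean square distances were 0.0538, 0.0689 and 0.0766 log2 units, among 11949 candidate genes that have a symbol and were measured above background throughout. Those most like Bcl2 were the kinase gene Lats2, the metalloproteinase inhibitor gene Timp3 and the chloride channel gene Ano1, at distances of 0.0480, 0.0489 and 0.0615. The likeness rests mostly on the size of the difference between groups, which was 3.99 to 4.05 for the genes near Bbc3 and -3.82 to -3.72 for those near Bcl2. The mean over all Lats2 probes gave -2.52.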

How the data were processed

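The deposited intensity values are processed signals from Feature Extraction 10.7.3.1, per the file headers. The authors' value table, on a log2 scale, was used as an alternative; set against the scanner files it equals the log2 processed signal less the array's 75th percentile and each probe's median (100% of values within 0.01). Per the labels, 100 ng of RNA per sample was labelled with Cy3.

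Here the log2 processed signal was scaled by the array's 75th percentile (959 to 1388 in signal). Outlier spots were left out. Probes well above background on all arrays of at least 1 group were kept (24150 of 39429), with the brightest kept probe standing for its gene. Symbols came from a RefSeq table of GRCm38.p6 (66.1% of probes). Of the genes tested 14204 have a symbol, and 5466 are identifiers without a symbol, each counted as a gene. Shares and ranks over all genes include both kinds. ESC and soma were tested with lmFit and eBayes of limma 3.58.1 (R 4.3.3), two-sided, with Benjamini-Hochberg adjustment over 19670 genes, or over 24150 probes for values by probe. The method was also run on simulated data in which few genes differed, unlike these data, so that run is not used as support. Pearson's r across genes, which are not replicates, was 0.994 to 0.995 within groups. Precision is limited by having 3 arrays per group.

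The members and lists were chosen with earlier results of these data known. Besides all members, the genes named are, from each pathway list, the 2 largest differences that passed in each direction. The 3 nearest genes to the members that moved most are named too. Foxo1, Foxo3 and Kdr are named outside this rule. Alternatives covered normalization, background correction, dim probes, probes per gene, the variance model, slide, scan, replicate number and each array left out. Normexp (offset 50) ran on the spots' median signal.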

Additional observations from a re-analysis of the deposited data

How the results depend on the processing

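Of 207 alternative values for the 9 members that passed, 205 kept their direction and their side of the threshold and 2 no longer passed. Both were under the test against a log2 difference of 1, which Mcl1 (adjusted p 0.0727) and Bmf missed. Several alternatives could not turn a direction, so the tally overstates what was tried. The filters on dim probes, the variance model and the test against a log2 difference of 1 left each member's estimate as it was. So did the average over probes for members with 1 probe, and the authors' values are the same data. The count of members that passed was 9 with each array left out in turn, and there the count of all genes was 16052 to 16586, that of the pathway lists 43 to 46 (46 with all arrays), and the pro-survival minus pro-death change -2.92 to -2.86. That change was -3.04 under quantile normalization, -2.56 under normexp, -2.58 with no background correction and -2.81 with the average over a gene's probes. The test against a log2 difference of 1 called 7592 genes in all and 18 in the pathway lists. In the main test most genes tested in the pathway lists passed, as did 84.9% of all genes, so that count is close to the background. Bcl2l1 turned sign under quantile normalization (-0.34), spike-in scaling (-0.16), normexp (-0.023), no background correction (-0.030), the average of its probes (-0.067), and without ESC 1 (leaving out each array in turn gave -0.00278 to 0.0463). Vdac3 turned to 0.038 under scaling to the array median. All genes higher in ESC and in soma numbered 9172 and 7537, or 7818 and 8278 under spike-in scaling and 8357 and 8104 under quantile normalization and 10229 and 6534 under scaling to the array median. Same-numbered samples did not deviate together (correlations of -0.05, 0.07 and 0.03 across genes), and with the replicate number as a block 9 members and 44 genes of the pathway lists passed. Low signal limits Bcl2 in ESC and Bcl2l11 on all arrays.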

Other observations

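Some genes of the same pathway lists stood out but were named after their values were seen. Bnip3, a mitochondrial relative of the BH3-only genes known from hypoxia and mitophagy, was 11.9-fold higher in ESC (log2 difference 3.57 ± 0.06, SE, n = 3 per group), and its other probes gave 4.25 and 3.54. Bik, a BH3-only gene, was higher by 1.77, with 2 of the 3 soma arrays well above background. Bad, of the same list of pro-death or divergent relatives, was lower in ESC, at -1.09 on its brighter probe and -1.08 on the other. Vdac2, which encodes the channel that binds BAK on mitochondria, was higher by 1.29. Cflar, whose protein blocks caspase-8 at death receptors, fell on all 3 probes, by 0.85 on the brightest and by 2.56 and 2.12 on the others.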
